A study of Mus musculus with 20 samples.

Results

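Collagens are extracellular matrix proteins built from 3 chains wound into a helix, and each chain is coded by a gene of its own. With earlier results of these data known, the genes were picked by name, as symbols of the form Col, a number, the letter a and a number. They were sought among annotated mouse transcripts with FPKM values (fragments per kilobase of transcript, scaled to the fragments sequenced, so a level per length). Of 44 such genes in the annotation, 28 were listed, all of them with transcripts in both of the tables compared, out of 14591 genes with a transcript in both. The 16 others, among them Col2a1 and the 3 type IX chains of cartilage, were not listed. A neighbour in name, Col4a3bp, codes for a ceramide carrier and was left out.

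RNA was sequenced from mouse abdominal aorta in 20 libraries, in 4 groups of 5: wild-type (WT) given saline, WT infused with angiotensin II (Ang II, 500 ng/kg/min), and libraries labelled KO given saline or the same dose of Ang II. Ang II is a vasoconstrictor peptide that raises blood pressure. The title of the series refers to DAPK1, a protein kinase regulated by calcium and calmodulin. The labels give neither strain, age, sex, the length of infusion nor the allele behind the KO label. Libraries go by their titles, where NS means saline and the digits are taken to be the animal's number. The KO saline libraries are called KO in title and genotype and WT in their description, and only 2025 transcripts are listed for them, so the main comparisons use the other 15 libraries.

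The depth worked out from the steps between values was 59.0 to 74.5 megareads. Dapk1 itself was listed at between 9.48 and 15.4 FPKM in WT saline, between 3.96 and 19.9 in WT Ang II, and between 4.997 and 13.85 in the group labelled KO given Ang II, but these sums hold unlike transcripts. In KOAngII560, 13.3 of 13.85 FPKM were on Dapk1-207, which the WT tables do not list. Dapk1-202, the only Dapk1 transcript in both tables, was at 4.51, 9.46, 0.514, 6.51 and 2.73 in the KO-labelled Ang II group, all below WT saline and overlapping with WT Ang II. The values do not tell which exons were read, and the group is called "labelled KO" for that reason. Smooth muscle genes, which mark the arterial wall, had high summed levels in all 15 libraries, at 5524 to 14420 FPKM (7 of 7 markers listed). Most of the sum came from Acta2, Tagln and Myh11 (means of 5370, 2562 and 883 FPKM), while Myocd had a mean of 1.71. Reg3b, an intestinal gene, was at 0 in the 5 WT saline and 3 of the WT Ang II libraries. It was at 2.92 and 5.18 FPKM in WTAngII580 and WTAngII581 and at 7.23 to 11.9 in the 5 libraries labelled KO given Ang II.

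Fibrillar collagens of types I, III and V form the rope-like fibrils that give the outer and middle coats of an artery their tensile strength. Type IV chains form the sheet of the basement membrane under endothelium and around smooth muscle cells, type VI forms beaded filaments at the cell surface, and type VIII is a short-chain collagen of vessel walls. Each chain is made as a precursor, hydroxylated, folded with chaperones, exported, trimmed and cross-linked, and a type I molecule usually combines a pair of Col1a1 chains with 1 Col1a2 chain.

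All collagen helices rest on a repeat of glycine followed by a pair of other residues, and fibrillar chains carry it in far longer unbroken runs than the other members. Stretches of 90 bases from the start of the longest unbroken run are shown to make that repeat visible. They come from the GENCODE M21 coding sequence of Col1a1-201 (from codon 168), Col3a1-201 (from codon 164), Col4a1-201 (from codon 43) and Col8a1-201 (from codon 352), 5′ to 3′, with the glycine codon that opens each triplet in capitals. Glycine codons at other places of a triplet are in lower case.
Col1a1: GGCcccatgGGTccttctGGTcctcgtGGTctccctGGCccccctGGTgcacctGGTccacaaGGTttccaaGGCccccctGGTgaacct
Col3a1: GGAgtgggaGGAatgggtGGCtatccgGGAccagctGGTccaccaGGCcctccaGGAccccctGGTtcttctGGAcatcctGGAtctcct
Col4a1: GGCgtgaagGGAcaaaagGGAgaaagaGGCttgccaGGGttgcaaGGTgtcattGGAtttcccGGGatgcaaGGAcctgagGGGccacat
Col8a1: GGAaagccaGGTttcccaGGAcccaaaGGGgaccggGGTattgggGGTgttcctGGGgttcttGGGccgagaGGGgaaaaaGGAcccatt
The longest run was 338 triplets in Col1a1, 339 in Col1a2 and 344 in Col3a1. In Col4a1 it was 40 triplets, and the helix was cut into 22 runs of 5 or more. Col4a2 reached 66, Col6a1 and Col6a2 87 each, and Col8a1 61. The 3 fibrillar chains thus had 1 long helix, while Col4a1 of the basement membrane had many short runs.

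In the comparison of Ang II with saline in WT mice, which asks what the infusion does to the normal aorta, most collagen genes had higher means with Ang II and none passed the test. The 24 genes that averaged 1 FPKM or more in the 15 libraries entered a test of 12635 genes with limma on log2(FPKM + 1), and 0 of 24 had a Benjamini-Hochberg adjusted p under 0.05 (0% of all genes tested did). The median difference of the 24 was 0.25 on that log2 scale, with 17 above 0, against 0.01 over all genes, of which 52.6% were above 0. The 24 come from the same libraries and are not independent observations. Within groups, the median deviation of the members in a library had an SD of 0.34 log2 units. No test of the family as a whole was run, here or for the medians of the other comparisons. One member, Col3a1, had an unadjusted p under 0.05, as did 617 genes or 4.88%. In 0 of 24 members the groups did not overlap, against 0.997% of all genes.

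Col3a1 (chromosome 1, 45311538 to 45349706, plus strand, GRCm38) codes for the single chain of type III collagen, the fibril of distensible tissue. In the WT saline libraries it was at 261, 250.2, 638, 524 and 465.5 FPKM. In WT Ang II it was at 873, 826, 527, 491 and 777, and in the libraries labelled KO given Ang II at 378, 401, 938, 922 and 444. The last group fell apart into KOAngII560 and KOAngII612, both above the highest WT library, and 3 libraries below the lowest of WT Ang II, and all 3 groups overlapped. The difference between WT Ang II and WT saline was 0.77 (SE 0.34, 95% interval 0.05 to 1.49) on the log2(FPKM + 1) scale, with an unadjusted p of 0.0388 and an adjusted p of 0.94 by limma. Without the 2 WT saline animals and the 1 KO-labelled animal numbered below 500 it was 0.34.

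Col1a1 (chromosome 11, 94936224 to 94953042, plus strand) codes for the main chain of type I collagen. Its values were 235, 199, 458, 392 and 362 FPKM in WT saline, 588, 508, 437, 326.5 and 571 in WT Ang II, and 249.5, 277, 660, 519.5 and 270.5 in the group labelled KO given Ang II. As for Col3a1, KOAngII560 and KOAngII612 stood above the other 3 of the KO-labelled group, and the groups overlapped. The difference in WT was 0.60 (SE 0.31, interval -0.06 to 1.26, limma adjusted p 0.94), and without the animals numbered below 500 it was 0.24. Between the group labelled KO and WT, both given Ang II, it was -0.38 (SE 0.31, adjusted p 0.704).

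The ratio of Col3a1 to Col1a1 moved much less than either gene. Over WT saline libraries it was 1.11 to 1.39, over WT Ang II libraries 1.21 to 1.63 and over KO-labelled Ang II libraries 1.42 to 1.78, with a coefficient of variation of 12.4% over the 15 libraries. The last group did not overlap with WT saline. This ratio was chosen after its values were seen and was not tested.

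Col5a1 and Col5a2, chains of the type V collagen that starts and limits fibrils, were far lower. Col5a1 (chromosome 2, 27886425 to 28039514) was at 14.7, 9.38, 24.1, 21.4 and 22.3 FPKM in WT saline. In WT Ang II it was at 31.2, 31.4, 18.7, 21.1 and 30.04, and with the KO label and Ang II at 18.0, 20.1, 35.2, 33.1 and 20.3. Its difference in WT was 0.54 (SE 0.26, interval -0.02 to 1.11, limma adjusted p 0.94), and 0.19 without the animals numbered below 500.

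Col5a2 (chromosome 1, 45374321 to 45503282, minus strand, next to Col3a1) behaved otherwise. It was at 54.8, 1.40, 79.7, 88.6 and 65.1 FPKM in WT saline, at 28.1, 66.4, 77.5, 1.96 and 26.2 in WT Ang II, and at 19.3, 16.1, 81.0, 38.7 and 66.5 in the group labelled KO given Ang II. The full-length transcript Col5a2-201 was listed at 0 in 7 libraries of all 3 groups, WTNS_373, WTAng_II519, WTAngII580, WTAngII581, KOAng_II402, KOAngII537 and KOAngII612. In 5 of those 7 the intron-retaining Col5a2-203 stood at 15.2 to 35.7 FPKM, against 0.517 to 3.27 in the other 10 libraries. Transcript values that switch in this way pass into the gene sum, and what sets them was not tested.

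**Figure D1:**
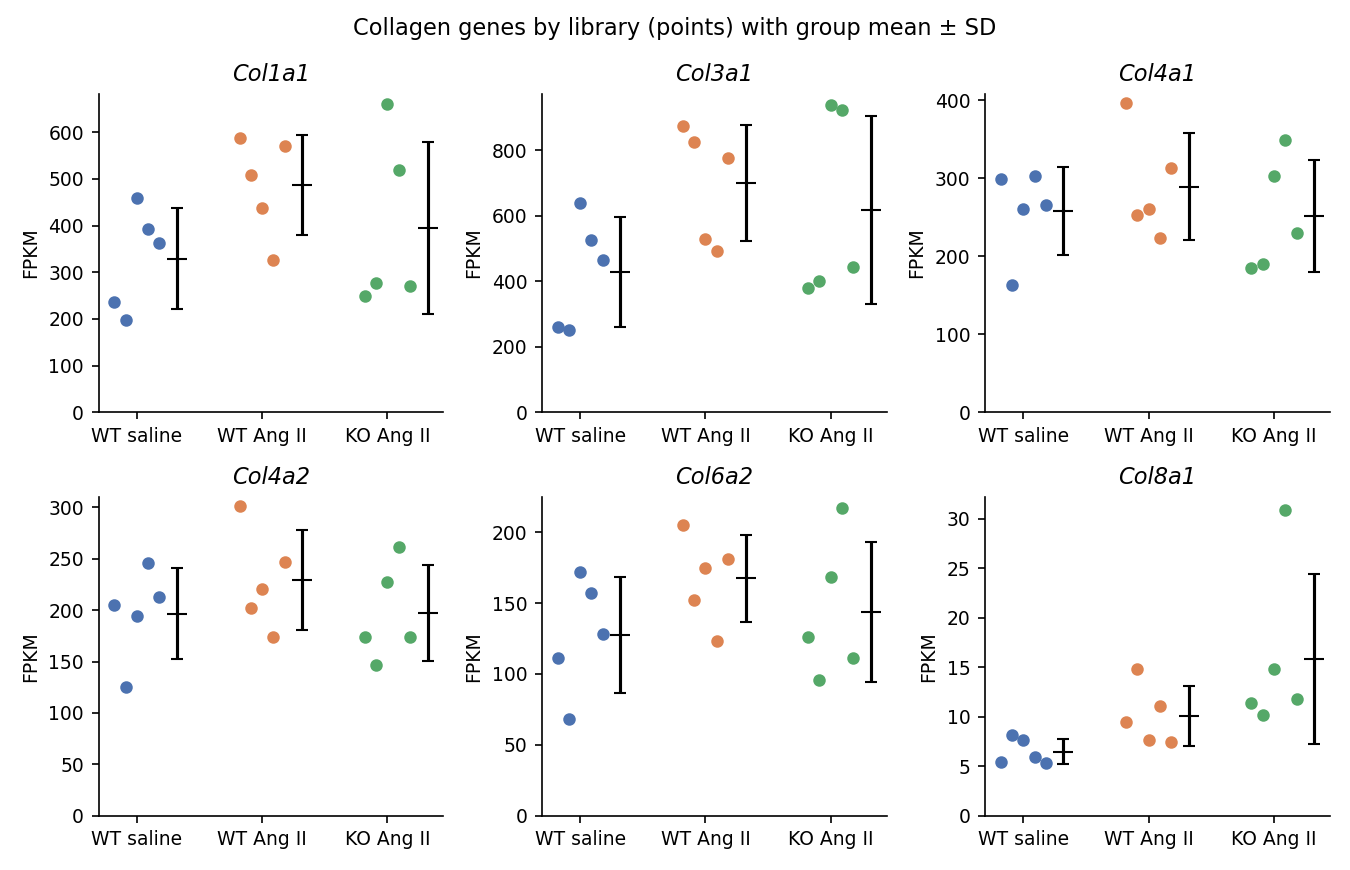
FPKM (vertical axes, from 0) of 6 collagen genes in the 5 libraries of each group (points), with the group mean ± SD beside them; KO is the label. In all 6 genes KOAngII560 and KOAngII612 stand above the other 3 libraries of the KO-labelled Ang II group, and for Col8a1 that whole group lies above WT saline.

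Col1a2, the partner of Col1a1 in type I collagen (chromosome 6, 4504814 to 4541544, plus strand), split the libraries without regard to group. It was at 20.5, 313, 21.9, 21.3 and 573 FPKM in WT saline and at 40.0, 35.1, 28.8, 30.4 and 883 in WT Ang II. With the KO label and Ang II it was at 127, 34.1, 947, 182 and 21.3. Values above 100 FPKM stood in 6 libraries, 2 of them WT saline, 1 WT Ang II and 3 KO-labelled, and the other 9 were at or below 40.0. The differences carried a standard error of 1.27 and were -0.14 for WT Ang II against WT saline, 0.77 for KO-labelled against WT under Ang II and 0.63 for KO-labelled Ang II against WT saline (limma adjusted p 0.99, 0.868 and 0.935).

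A set of assembled transcripts that the authors named MERGE.30863, and that the tables pair with no gene, ran the other way. MERGE.30863.2 was at 0 in WTNS_373, WTNS_550, WTAngII581 and KOAngII560, the 4 libraries with Col1a2 above 300 FPKM. In the other 11 it was at 304.5 to 851 FPKM. With the 3 MERGE.30863 transcripts added to Col1a2, the ratio to Col1a1 was 1.49 to 1.90 in all 15 libraries, with a coefficient of variation of 7.19%, against 127% for Col1a2 alone. Of 11492 MERGE numbers tried in the same way, the next best left 30.1%. This pairing was found by searching these values, is not an annotation, and was not tested on other data. With it, the differences of Col1a2 were 0.465 in WT, -0.31 for KO-labelled against WT under Ang II and 0.16 against WT saline, each with a standard error of 0.29, and none passed the test (limma adjusted p 0.94, 0.744 and 0.925).

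**Figure D2:**
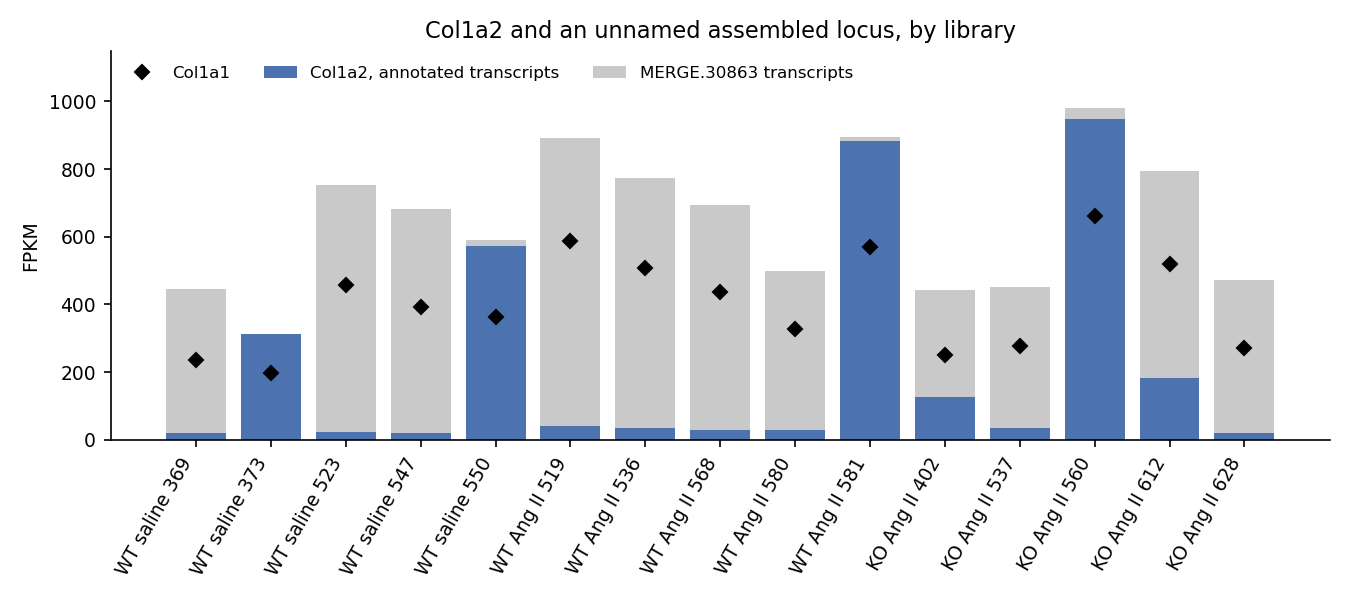
FPKM (vertical axis, from 0) of annotated Col1a2 transcripts (blue) with the MERGE.30863 transcripts stacked on them (grey), and of Col1a1 (diamonds), in each of 15 libraries. Where the blue part is above 300 FPKM the grey part is near 0, and the whole bar keeps a ratio to Col1a1 of 1.49 to 1.90.

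Col4a1 and Col4a2 code for the chains of the type IV collagen found in nearly all basement membranes. They lie head to head on chromosome 8 (Col4a1 11198423 to 11312826, minus strand; Col4a2 11312805 to 11449287, plus strand). Their RefSeq start sites are 21 bases apart and the first transcribed bases overlap. The 30 bases around the starts, from RefSeq on GRCm38.p6 at chr8:11312801-11312830, plus strand, are shown with the bases from the Col4a2 start to the Col4a1 start in capitals.
Col4a2 and Col4a1 starts: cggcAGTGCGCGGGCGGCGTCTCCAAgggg
RefSeq windows of 300 bases around a start were found for 23 of the 28 members. The letters CCAAT, on either strand, were in the windows of 8 of them, Col4a1 and Col4a2 included, and in 37.4% of 32851 such windows of all genes. The letters GGGCGG were in those of 17 members, against 35.7% of all windows, and TATAAA in 2, against 13.6%; the member windows were richer in G and C (median 61.0%, against 52.7%).

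Col4a1 was at 299, 163, 260, 303 and 266 FPKM in WT saline, at 397, 252.5, 261, 223 and 313 in WT Ang II, and at 185, 190, 302, 349 and 230 in the group labelled KO given Ang II. Col4a2 followed at 205, 125, 194, 246 and 213, then 301, 202, 221, 174 and 247, then 174, 147, 228, 262 and 174 FPKM. In each group the same library was highest in both. The ratio of Col4a2 to Col4a1 was 0.686 to 0.939 with a coefficient of variation of 7.18%. Between their longest coding transcripts alone the ratio reached 2.69, in WTNS_373, and the coefficient of variation was 54.3%. Across the 15 libraries their log2 values correlated with Pearson's r of 0.959 and Spearman's rho of 0.971 (2-sided permutation test, p = 1e-05 each, the smallest that 100000 permutations can give; adjusted p 7e-05 over 7 relations between partner chains). Without the 2 libraries farthest from the median, r was 0.923.

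The group differences of these type IV chains were small. For Col4a1 they were 0.17 (interval -0.31 to 0.65) with Ang II in WT and -0.22 (interval -0.70 to 0.26) for KO-labelled against WT under Ang II. For Col4a2 they were 0.23 (interval -0.21 to 0.67) and -0.22 (interval -0.67 to 0.22). The limma adjusted p was between 0.743 and 0.948 for these 4. Without WTNS_373 the differences in WT were 0.0093 for Col4a1 and 0.075 for Col4a2. With covariates for marker levels of other tissues, all 4 turned sign, to -0.19 and -0.088 in WT and to 0.25 and 0.17 under Ang II. In WTNS_373 most of Col4a1 was listed under Col4a1-208, a transcript marked for nonsense-mediated decay, at 116 FPKM against 46.4 for Col4a1-201. In the other 9 WT libraries Col4a1-208 was below 0.01 FPKM. The KO Ang II table does not list it, and it was counted as 0 there.

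Col4a5 and Col4a6, neighbours on the X chromosome that code for chains of smooth muscle basement membranes, stood apart from each other in level. Col4a6 (141165403 to 141474076) was at 33.1, 13.5, 48.0, 47.5 and 37.9 FPKM in WT saline, 44.0, 26.5, 38.0, 23.1 and 47.4 in WT Ang II, and 22.5, 26.1, 34.8, 29.6 and 28.1 in the group labelled KO given Ang II. Col4a5 (141475385 to 141689234) was at 0.389, 0, 0.5, 2.94 and 4.33 in WT saline, 0.836, 0.618, 2.28, 1.04 and 1.79 in WT Ang II, and 0.313, 0.509, 0.583, 0.546 and 0.38 in the KO-labelled group.
The Col4a5 values of the KO-labelled Ang II group all lay below those of WT Ang II, which 69 genes or 0.546% also showed in that direction. The difference was -0.61 (SE 0.39, limma adjusted p 0.656). Part of it comes from Col4a5-203, a non-coding transcript that the KO Ang II table does not list and that was counted as 0 there. For Col4a5-201 alone, the values were 0.355 to 1.23 FPKM in WT Ang II and 0.313 to 0.583 in the KO-labelled group, and they overlapped. The relation of Col4a5 to Col4a6 (r = 0.604, rho = 0.564 in 15 libraries, adjusted permutation p 0.06 and 0.103) did not pass adjustment. It fell to r = 0.446 without the 2 libraries farthest from the median and to 0.562 as deviations from the group means. On log2(FPKM + 0.1) r was 0.725, and with only transcripts listed in both tables, so without Col4a5-203, it was 0.80. These alternatives were not tested.

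Col4a3 and Col4a4, chains of the glomerular type of basement membrane, were at 2.40 to 8.40 and 0.727 to 8.49 FPKM over the 15 libraries. Neither passed the test in any comparison.

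Type VI chains were abundant and Col6a1 dropped out of single libraries. Col6a2 (chromosome 10, 76595762 to 76623630, minus strand) was at 111, 68.2, 172, 157 and 128 FPKM in WT saline, 205, 152, 175, 123 and 181 in WT Ang II, and 126, 95.9, 168.5, 217 and 111 in the KO-labelled Ang II group. Col6a1, its neighbour (76708792 to 76726168), was at 0.290, 68.6, 167, 153.5 and 135 in WT saline, 194, 177, 166, 128 and 187 in WT Ang II, and 0, 111, 191, 77.2 and 109 in the KO-labelled group. Near 0 stood WTNS_369 and KOAng_II402 alone, while Col6a2 was at 111 and 126 FPKM in the same 2 libraries. In 12 of the other 13 libraries the ratio of Col6a1 to Col6a2 was 0.947 to 1.16, and in KOAngII612 it was 0.355.
The difference of Col6a1 was 1.76 (SE 1.44) in WT and -1.91 (SE 1.44) for KO-labelled against WT under Ang II, with limma adjusted p of 0.94 and 0.689. Without WTNS_369 the first was 0.44, and without KOAng_II402 the second was -0.54. The difference of Col6a2 in WT was 0.44 (SE 0.26, adjusted p 0.94). Col6a3, another chain of type VI, was at 5.35 to 27.7 FPKM.

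**Figure D3:**
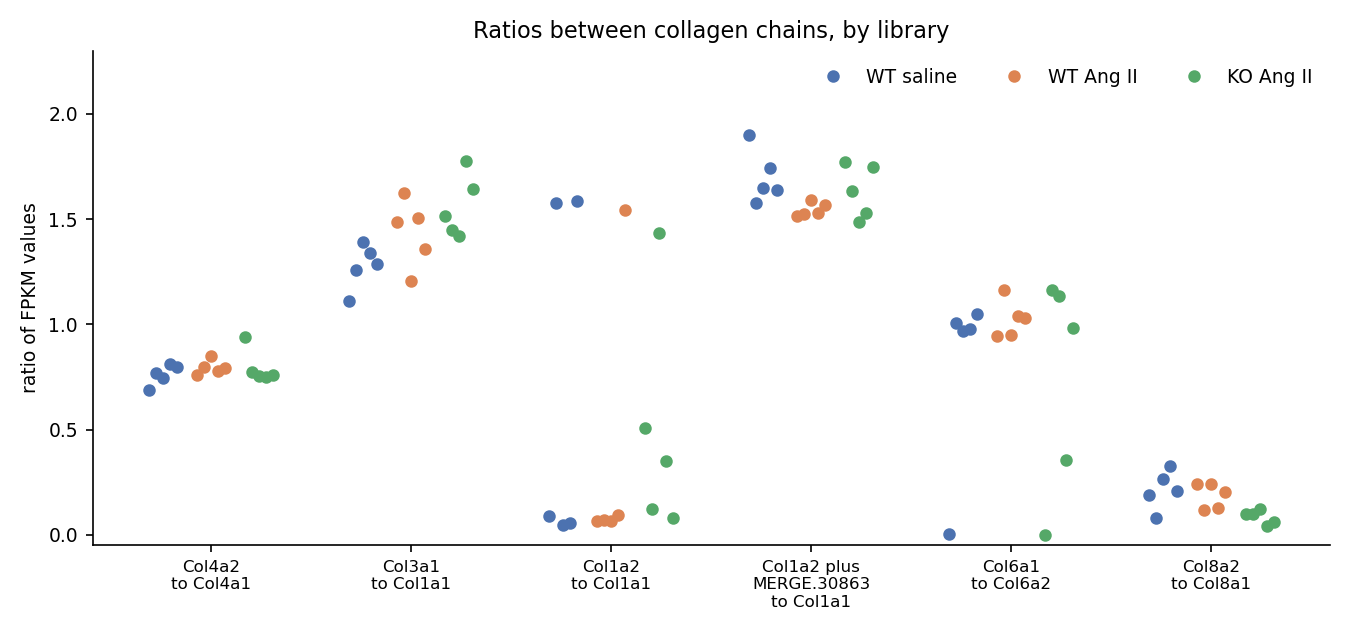
Ratios of FPKM values between collagen chains (vertical axis, linear) in each of 15 libraries, coloured by group; KO is the label. Col4a2 to Col4a1 stays between 0.686 and 0.939, while Col1a2 to Col1a1 and Col6a1 to Col6a2 hold separate low and high libraries in all groups or in 2 of them.

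Among the other partner chains no relation passed adjustment. Libraries fell into separate clusters, by a gap of over 1.5 log2 units that was set after the values were seen, for Col1a2, Col5a2 and Col6a1, so no pooled r is given for them. Within the 9 libraries with low Col1a2 its r with Col1a1 was 0.515 and its rho 0.667, and within the 6 with high Col1a2 they were 0.585 and 0.714 (exact permutation test, adjusted p 0.265 and 0.103, then 0.303 and 0.191). Within the 13 libraries with Col6a1 listed well above 0, r with Col6a2 was 0.584 and rho 0.55, with adjusted permutation p of 0.0836 and 0.103. For Col5a1 with Col5a2 in 13 libraries, r was 0.03 and rho 0.209, and for Col8a1 with Col8a2 in 15 they were -0.02 and -0.06 (adjusted permutation p 0.955 and 0.572, then 0.955 and 0.822).

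Col8a1, the short-chain collagen made by endothelium and by smooth muscle cells that migrate, was the member with the smallest p. Its gene lies on chromosome 16 (57624258 to 57754737, minus strand), and it was carried by 1764 to 11607 reads. It was at 5.45, 8.11, 7.60, 5.90 and 5.32 FPKM in WT saline and at 9.502, 14.8, 7.64, 11.1 and 7.498 in WT Ang II. In the group labelled KO given Ang II it was at 11.4, 10.2, 14.8, 30.9 and 11.8. The KO-labelled group lay wholly above WT saline, and WT Ang II overlapped with both.
The question that KO-labelled Ang II against WT saline answers mixes genotype and infusion, since both differ. In it the difference of Col8a1 was 1.07 (SE 0.26, interval 0.51 to 1.63), with an unadjusted p of 0.00109 and an adjusted p of 0.23 by limma, so that it did not pass. Under 26 other settings the difference was 0.81 to 1.19 and the limma adjusted p 0.0861 to 0.431. Those settings that only leave out a WT Ang II library cannot move the difference, since each group has its own coefficient. For WT Ang II against WT saline the difference was 0.55 (SE 0.26, adjusted p 0.94), and for KO-labelled against WT under Ang II 0.52 (SE 0.26, adjusted p 0.629). Without KOAngII612, the highest, the difference of the KO-labelled group was 0.81 from WT saline and 0.26 from WT Ang II. Reg3b was at 7.23 to 11.9 FPKM in the KO-labelled group and at 0 in WT saline. Its presence thus cannot be told apart from group between these, and no setting took account of it there.

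In that comparison 0 of 24 members passed, against 0.103% of all genes (13 of 12635, with 0.095% higher and 0.00791% lower). One of 24 had an unadjusted p under 0.05, against 8.38%. In 1 of 24 the groups did not overlap, against 1.83%, and it lay wholly above WT saline, against 0.855% in that direction. The median of the 24 differences was 0.16, with 17 above 0, against 0.02 over all genes, of which 52.6% were above 0. That median turned to -0.022 with sample quality weights, -0.073 without animals numbered below 500 and -0.046 without KOAngII560. All 7 fibrillar members had differences above 0 and a median of 0.46, while the 6 type IV members had a median of -0.02 with 3 on each side. Not all 7 stayed above 0 under other settings. Col1a1 was at -0.056 with quality weights and at -0.0055 without animals numbered below 500. Col1a2 was at -0.33 with marker covariates and at -0.14 without KOAngII560.

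Col8a2, the other type VIII chain, did not follow Col8a1. It was at 1.02, 0.658, 2.01, 1.93 and 1.10 FPKM in WT saline, 2.27, 1.72, 1.86, 1.44 and 1.54 in WT Ang II, and 1.11, 1.02, 1.79, 1.26 and 0.715 in the KO-labelled Ang II group. The ratio of Col8a2 to Col8a1 was 0.213 ± 0.092 (SD, n = 5) in WT saline, 0.187 ± 0.060 in WT Ang II and 0.0838 ± 0.032 in the KO-labelled group. That ratio was chosen after its values were seen and was not tested.

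Between the group labelled KO and WT, both given Ang II, the question is whether levels under the infusion differ with genotype, with no saline baseline taken off, and the collagen genes lay on both sides of 0. None of 24 passed the limma test (0% of all genes did), and 0 of 24 had an unadjusted p under 0.05, against 7.95% of all genes. Of the 24, 10 were higher and 14 lower in the KO-labelled group, with a median difference of -0.09 against -0.01 over all genes, of which 48.6% were higher. In 1 of 24 the groups did not overlap, against 1.12%. For Col3a1 the difference was -0.26 (SE 0.34, interval -0.98 to 0.46, adjusted p 0.815). With voom on reads worked out from the FPKM values, 0 collagen genes were called in any of the 3 comparisons, and 0, 0 and 17 genes in all.

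**Figure D4:**
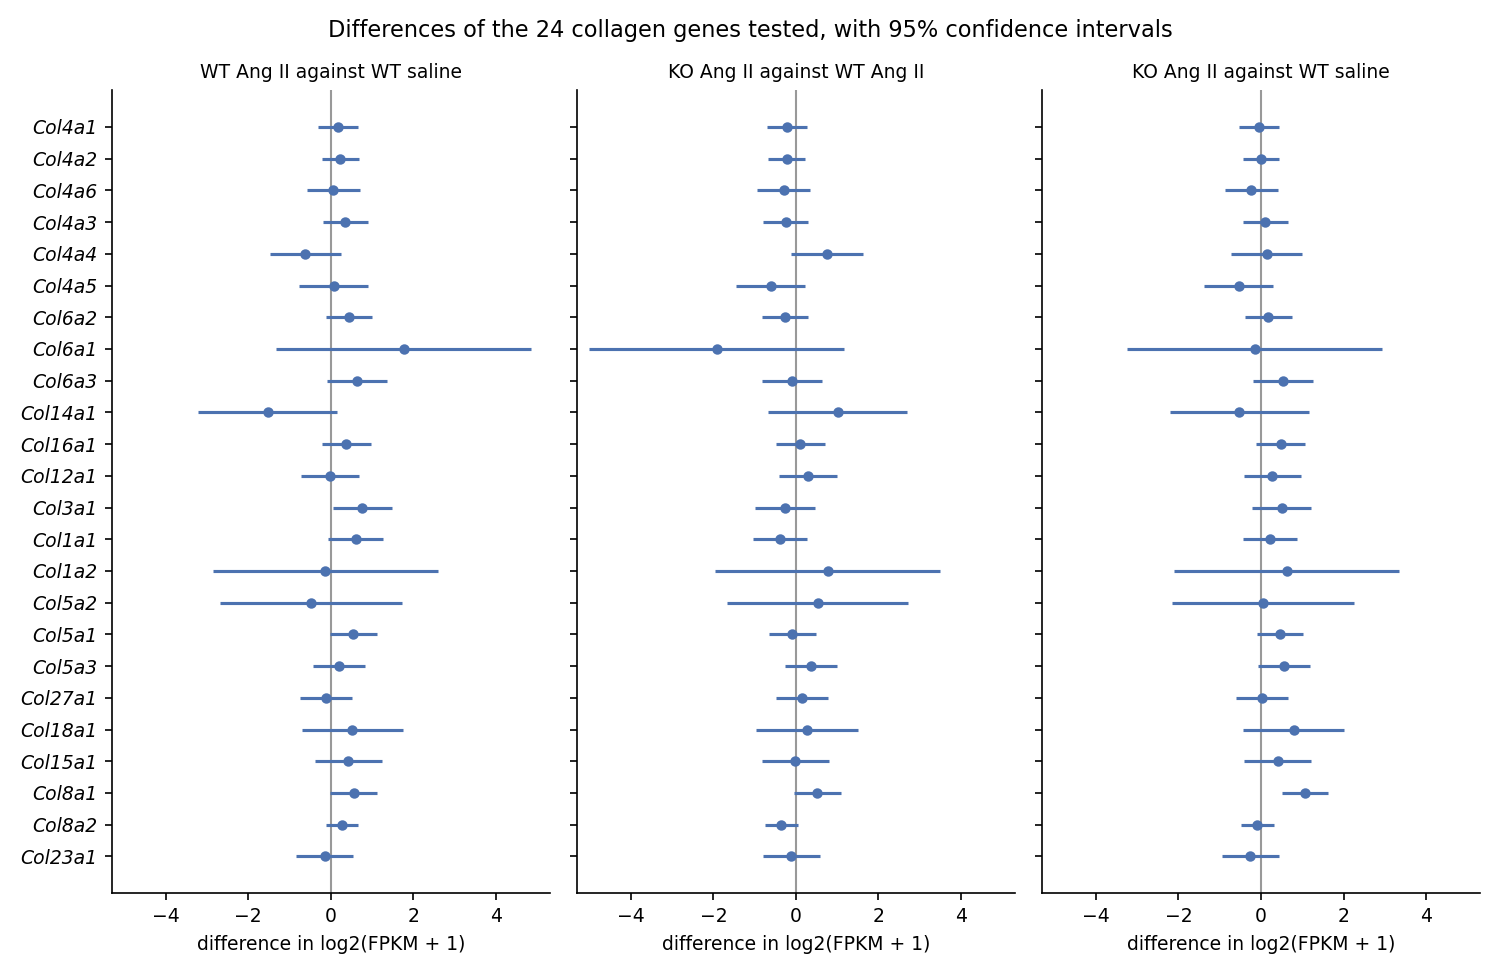
Differences in log2(FPKM + 1) (horizontal axes) of the 24 collagen genes tested in 3 comparisons, as points with 95% confidence intervals from limma, ordered by class and level; KO is the label. Intervals lie wholly above 0 for Col3a1 in the first panel and for Col8a1 in the third, and the widest belong to Col6a1, Col1a2 and Col5a2.

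The fibril-associated collagens sit on the surface of fibrils. Col14a1 (chromosome 15, 55307750 to 55520803), which shapes fibril diameter, was at 13.7, 13.4, 16.3, 0.973 and 13.9 FPKM in WT saline, 1.93, 12.8, 1.41, 1.54 and 1.16 in WT Ang II, and 13.2, 0.855, 17.7, 1.44 and 13.7 in the KO-labelled Ang II group. It was near 13 FPKM or above in 8 libraries and below 2 in 7, with members of each group on both sides. The difference was -1.53 (SE 0.79, limma adjusted p 0.94) in WT and 1.01 (SE 0.79, adjusted p 0.697) for KO-labelled against WT under Ang II. Col12a1 was at 0 to 3.12 FPKM and Col16a1 at 2.89 to 10.7, and both had intervals that hold 0 in all 3 comparisons. Their transcripts Col12a1-202 and Col16a1-205 are listed in the KO Ang II table only and counted as 0 in WT. By gene sum the KO-labelled means were 1.78 and 7.71 FPKM. On the shared transcripts Col12a1-201 and Col16a1-210 they were 1.14 and 7.19, below the 1.31 and 7.45 of WT Ang II.

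Col15a1 and Col18a1, the multiplexins, are proteoglycans of the basement membrane zone, and Col18a1 is the source of endostatin. Col18a1 (chromosome 10, 77052178 to 77166548, minus strand) was at 50.1, 12.2, 39.7, 80.1 and 41.9 FPKM in WT saline, 106, 34.4, 64.6, 25.4 and 88.2 in WT Ang II, and 242, 36.3, 45.0, 82.7 and 41.6 in the KO-labelled Ang II group. KOAng_II402 stood alone, with 236 of its 242 FPKM on the transcript Col18a1-202, which reached at most 22.6 FPKM in the other 14. The difference from WT saline was 0.79 (SE 0.57, limma adjusted p 0.785), and without KOAng_II402 it was 0.34. Col15a1 summed to 17.7 to 114 FPKM, and its 2 transcripts traded places: Col15a1-201 was at 0 in 5 WT libraries in which Col15a1-202 was at 17.7 to 69.7 FPKM.

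Of the remaining members tested, the minor fibrillar chains Col5a3 and Col27a1 were at 3.14 to 11.8 and 1.02 to 5.11 FPKM, and Col23a1, a transmembrane collagen, at 0.128 to 3.33. The 4 members below a mean of 1 FPKM were not tested. They were Col11a1 (0.226 to 1.75 FPKM) and Col11a2 (0 to 1.12), fibrillar chains best known from cartilage, Col20a1 (0 to 1.63) and Col6a5 (0 to 1.76). The 7 members with a mean of at least 100 FPKM held 74.4% to 92.0% of the summed collagen level. That sum was 1894 ± 521 FPKM (SD, n = 5) in WT saline, 2530 ± 710 in WT Ang II and 2288 ± 1018 in the KO-labelled Ang II group. It takes Col1a2 and Col6a1 as listed, with their switches between libraries. With the MERGE.30863 transcripts added, the sums were 2262 ± 705, 3077 ± 651 and 2654 ± 937.5 FPKM in the same order. Differences between these sums were not tested.

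Genes that make, export, trim, cross-link, bind or cleave collagen were read from fixed lists, and 0 passed the limma test in any comparison. For enzymes and chaperones of chain modification, 14 of 16 tested had differences above 0 in WT with Ang II (median 0.18) and 4 of 16 for KO-labelled against WT under Ang II (median -0.15). Serpinh1, the collagen chaperone HSP47, was at 194 ± 57.6, 162 ± 50.9 and 171 ± 23.2 FPKM (SD, n = 5) in WT saline, WT Ang II and KO-labelled Ang II. P4hb, a subunit of prolyl hydroxylase, was at 154 ± 29.6, 180 ± 32.3 and 177 ± 64.5. Neither moved beyond its spread. For export genes the medians were 0.08 and -0.01, with Sar1a and Sar1b, small GTPases of the coat that leaves the endoplasmic reticulum, at means of 36.8 to 49.5 FPKM.

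Of the genes of propeptide cleavage, 5 of 5 tested had higher fitted means with Ang II in WT (median 0.41) and 5 of 5 had lower ones for KO-labelled against WT under Ang II (median -0.46). These 2 comparisons share the WT Ang II libraries. Pcolce, which enhances removal of the C-terminal propeptide of fibrillar collagens, was at 59.0 ± 27.2 FPKM (SD, n = 5) in WT saline, 111 ± 22.7 in WT Ang II and 90.4 ± 26.8 in the KO-labelled group. Its difference in WT was 1.04 (SE 0.32), with an unadjusted p of 0.00595 and an adjusted p of 0.939 by limma. Adamts2, which removes the N-terminal propeptide, was at 41.6 ± 11.95, 54.2 ± 8.74 and 40.2 ± 16.5.

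Of the cross-linking genes, 5 of 6 had differences above 0 with Ang II in WT (median 0.28) and 2 of 6 for KO-labelled against WT under Ang II (median -0.42). Lox and Loxl1, oxidases that cross-link collagen and elastin, were at means of 78.5 to 90.03 and 58.2 to 83.3 FPKM. Of the small leucine-rich proteoglycans that coat fibrils, 5 of 6 were above 0 in WT and 0 of 6 in the KO-labelled comparison (medians 0.26 and -0.45). Bgn was at 1644 ± 356, 2010 ± 596 and 1635 ± 398 FPKM and Dcn at 983 ± 54.8, 1089 ± 365 and 848 ± 465, in the order WT saline, WT Ang II, KO-labelled Ang II. Collagen receptors (7 tested, Itgb1 and Ddr2 the most abundant) had medians of 0.16 and -0.23, and proteases that cleave collagen (6 tested, Mmp2 and Ctsk the most abundant) 0.21 and -0.23. The 3 elastic lamina genes, which code for the elastic counterpart of collagen in the wall, had medians of 0.85 and -0.75, and 0 of 3 passed.

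Markers of other tissues differed between the libraries, and relations to collagen levels were computed for those of brown and white adipocytes alone. The summed level of 7 of 7 brown adipocyte markers was 548 to 3078 FPKM with saline in WT, 139 to 2360 with Ang II in WT and 337 to 2347 with Ang II and the KO label, and none of the 7 is a collagen gene. In relations added after seeing the data, the mean log2(FPKM + 1) of these markers correlated with Col1a1 at r = -0.907 and rho = -0.907 across 15 libraries (permutation p 1e-05, the smallest that 100000 permutations can give, and 3e-05). For Col3a1 r was -0.831 and rho -0.832, and for Col4a1 -0.744 and -0.668. For Col8a1 they were -0.12 and -0.05. Adjusted over 8 relations, these and those of the white adipocyte markers, the permutation p for r was 8e-05, 0.0004, 0.00298 and 0.703 in that order. As deviations from the group means, r was -0.884, -0.816, -0.738 and -0.06, and without the 2 libraries farthest from the median of the markers it was -0.909, -0.791, -0.556 and -0.119.
The white adipocyte markers, 6 of 6 listed, correlated with Col1a1 at r = -0.682 and rho = -0.661, with Col3a1 at -0.561 and -0.611, and with Col4a1 at -0.825 and -0.789 (adjusted permutation p for r 0.0105, 0.0414 and 0.0004, n = 15). For Col8a1 r was 0.111 and rho 0.30 (adjusted permutation p for r 0.703). Without the 2 libraries farthest from the median of these markers, r was -0.557, -0.380, -0.733 and 0.173 in the same order, and as deviations from the group means -0.756, -0.702, -0.828 and -0.125.
Relations of the adipocyte markers to wall genes other than collagens were not computed, so a relation particular to collagen is not shown. The summed smooth muscle markers were at 14420 FPKM in WTAng_II519, where the brown adipocyte mean was lowest (3.66). They were at 5694 FPKM in WTNS_373, where that mean was highest (7.20). In these bulk samples fewer cells of a type and less RNA per cell cannot be told apart. With covariates for the mean marker levels of skeletal muscle, of brown adipocytes and of sympathetic neurons, the difference of Col3a1 in WT was 0.28 and that of Col1a1 0.13, against 0.77 and 0.60 without them. That of Col8a1 between KO-labelled Ang II and WT saline was 1.17, against 1.07.

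**Figure D5:**
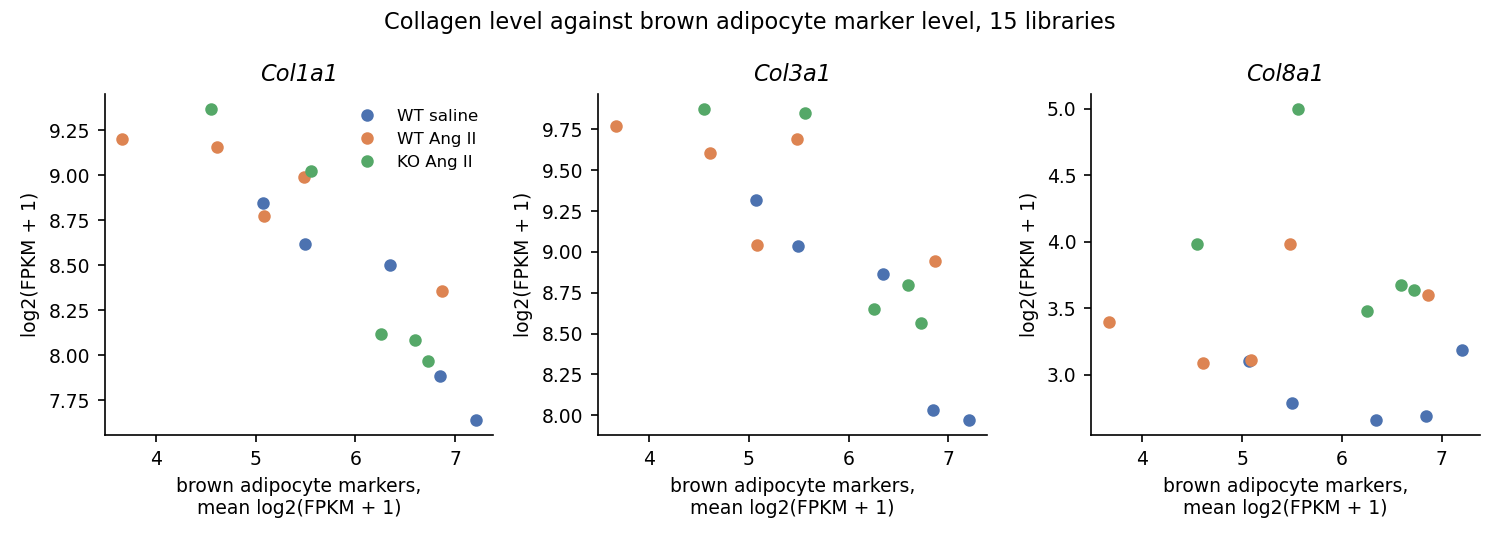
Level of Col1a1, Col3a1 and Col8a1 (vertical axes, log2(FPKM + 1)) against the mean level of 7 brown adipocyte markers on the same scale (horizontal axes) in 15 libraries, coloured by group; KO is the label. Col1a1 and Col3a1 fall as the markers rise (r = -0.907 and -0.831), and Col8a1 does not follow them (r = -0.12).

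The other marker lists give the make-up of the samples beside these levels. Sympathetic neuron markers (7 of 7 listed) ranged over a summed 3.01 to 488 FPKM with saline in WT, 0.175 to 143 with Ang II in WT and 4.00 to 930 with Ang II and the KO label, and skeletal muscle markers (5 of 7 listed) to 1.54 to 172, 2.75 to 150 and 1.79 to 24.3. Intestinal markers (7 of 8 listed) summed to 1.88 to 5.59, 1.15 to 18.8 and 21.8 to 51.3 FPKM. In WT saline all of that sum was Lgals4, and the other listed intestinal markers were at 0. Lgals4 itself had a mean of 3.10 FPKM in WT saline and 2.28 in the KO-labelled group. By the limma test 5 of 7 were higher in the KO-labelled group than in WT saline, against 12 of 12635 genes higher (0.095%). Fibroblast markers (7 of 7), which mark a main source of fibrillar collagen, summed to 2887 to 3356, 2469 to 4863 and 1730 to 4817. Macrophage markers (8 of 8) summed to 227 to 331, 336 to 469 and 241 to 516, and endothelial markers (6 of 6) to 150 to 316, 173 to 507 and 114 to 244. White adipocyte markers (6 of 6) summed to 1512 to 4762, 987 to 4234 and 1748 to 4740, and Schwann cell markers (6 of 6) to 39.5 to 126, 67.1 to 166 and 51.9 to 247. Cartilage markers (3 of 6 listed) stayed at 11.1 to 33.5 FPKM, and the 4 mesothelial markers were not listed. Apart from the covariates above, the part of these tissues in the collagen levels was not tested.

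The KO saline libraries can be compared for 3 collagen transcripts only, each listed in all 20 libraries. How the 2025 transcripts of that table were chosen is not given in the sources used here. Col18a1-205, a short protein-coding transcript, was at 0.705, 2.485, 0, 5.065 and 0 FPKM in KONS_387, KONS_412, KONS_555, KONS_608 and KONS_627. It was at 32.5, 0, 6.61, 50.2 and 11.4 in WT saline, 67.6, 20.9, 50.9, 0 and 55.05 in WT Ang II and 1.92, 20.5, 21.2, 56.3 and 21.6 in KO-labelled Ang II. The difference between KO-labelled Ang II and KO saline was 3.12 (SE 1.11, adjusted p 0.0512 by limma over 1015 transcripts, of which 19.7% passed), and the transcript did not pass. It passed when WTNS_373, WTNS_547, WTAng_II519, WTAngII580 or KOAng_II402 was left out (limma adjusted p 0.0258 to 0.0498). Leaving out a WT library cannot move this difference, since each group has its own coefficient, and acts on the p alone. No other Col18a1 transcript is listed for KO saline, so the values of Col18a1-205 there do not give the level of the gene.
Col15a1-201 was at 0, 0, 0, 42.3 and 49.5 FPKM in KO saline and Col4a4-201 at 0.699, 0.0355, 0.372, 0.74 and 0.465. Their differences between KO-labelled Ang II and KO saline were 3.39 (SE 1.55, limma adjusted p 0.0765) and 0.83 (SE 0.43, limma adjusted p 0.096). Col15a1-202, at 17.7 to 69.7 FPKM in the WT libraries with Col15a1-201 at 0, is not listed for KO saline. The values of Col15a1-201 there thus do not give the level of the gene. Between KO saline and WT saline, 0 of the 3 passed (2.66% of 1015 did), with limma adjusted p from 0.227 to 0.971. The difference of the Ang II effects between the labelled genotypes was 2.17 for Col18a1-205, 2.31 for Col15a1-201 and 1.46 for Col4a4-201, and none of the 3 passed (4.93% of 1015 did, adjusted p 0.281, 0.399 and 0.0984).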

How the data were processed

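Per the labels' protocols, TRIzol was used for extraction and the NEBNext Ultra kit for libraries. The authors deposited FPKM per transcript, for Ensembl and for assembled (MERGE) transcripts. The submitters' processing notes name bcl2fastq, FastQC, fastp and mm10; for aligner, assembler and quantifier nothing is given in the sources used here. FPKM of annotated transcripts (GENCODE M21) were summed per gene, an unlisted transcript counting as 0. That touched 7 members: Col4a1, Col4a5 and Col6a1 (a transcript listed for WT only), and Col6a3, Col12a1, Col16a1 and Col18a1 (for KO Ang II only). MERGE transcripts, 12.2% to 15.8% of the listed FPKM, were left out.

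Genes that averaged 1 FPKM or more in the 15 libraries were tested with limma 3.58.1 (R 4.3.3) on log2(FPKM + 1), a scale that understates the change of low genes, with 1 coefficient per group and p adjusted by Benjamini and Hochberg over 12635 genes. Of values under 50 reads, 98.7% to 99.2% lay within 0.05 reads of a whole number, which gave the depths. The fit was tested on simulated data. Each animal appears once. Libraries were not duplicates: no pair had more than 1 gene above 1 FPKM with the same value. Correlations used scipy 1.17.1.

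Named in full were members with a mean of at least 100 FPKM, past the test, without overlap between groups, among the 3 largest differences of a comparison, or partner chains, and the 2 most abundant genes of each list. Members and lists were chosen with earlier results of these data known.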

Additional observations from a re-analysis of the deposited data

Results flagged for a closer look

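From 15 collagen genes in 3 groups, 45 sets of 5 values were examined. In 6 of them a library had a gap to the next of more than 0.71 of the whole range of its group. For independent values of a normal distribution that comes up in about 1 of 20 sets. FPKM values need not be normal, and the genes share libraries. The genes were also named with earlier results known, so 6 of 45 cannot be set against that rate. The 6 are values of single libraries, and their cause was not tested. Col1a2 was at 883 FPKM in WTAngII581 (next 40.0) and at 947 in KOAngII560 (next 182). Both lie among the 4 libraries in which MERGE.30863.2 was listed at 0. Col8a1 was at 30.9 FPKM in KOAngII612 (next 14.8). Col14a1 was at 0.973 FPKM in WTNS_547 (next 13.4) and at 12.8 in WTAng_II536 (next 1.93), so each group held a library at the level usual in the other. Col18a1 was at 242 FPKM in KOAng_II402 (next 82.7), nearly all of it on 1 transcript.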

How the results depend on the processing

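The count of collagen genes past the test was 0 in all 3 comparisons under every alternative run. With 5 libraries a group and standard errors of 0.19 to 1.44, smaller differences could not be called. The median over the members kept its sign in WT Ang II against WT saline. For KO-labelled against WT under Ang II it turned to 0.23 with marker covariates, and ranged from -0.23 (without WTAngII580) to 0.015 (without WTAng_II519) when single libraries were left out. For KO-labelled Ang II against WT saline it turned to -0.022 with sample quality weights and -0.073 without animals numbered below 500, and ranged from -0.046 (without KOAngII560) to 0.30 (without KOAng_II402) with single libraries left out. Of all genes, 13 passed in this comparison, 30 with quality weights, 0 with marker covariates, 0 without animals numbered below 500, and 7 to 15 with single libraries left out (7 without KOAngII537, 8 without WTNS_547). For KO-labelled against WT under Ang II 0 passed, 6 among libraries with Reg3b, 7 without WTAngII580 and 2 without WTAngII581. In WT 0 passed, 2 without libraries with Reg3b, and 1 without WTNS_550 or without KOAngII560.

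Marker covariates reversed Col4a1 (-0.19) and Col4a2 (-0.088) in WT, Col3a1 (0.15), Col1a1 (0.011), Col4a1 (0.25) and Col4a2 (0.17) for KO-labelled against WT under Ang II, and Col1a2 (-0.33) for KO-labelled Ang II against WT saline. In the last comparison Col1a1 turned to -0.056 with quality weights, and without animals numbered below 500 Col1a1 to -0.0055 and Col18a1 to -0.067. Col1a2 in WT turned to 0.11 with quality weights and 0.465 with MERGE.30863, an alternative chosen after seeing the data; for KO-labelled against WT under Ang II it turned to -0.31 with MERGE.30863 and -0.58 among libraries with Reg3b. With single libraries left out Col1a2 ranged from -1.08 to 0.61, from -0.0051 to 1.70 and from -0.14 to 1.37 in the 3 comparisons. None of these differences passed. The correlation of Col5a1 with Col5a2 turned to -0.053 without 2 libraries, and that of Col8a1 with Col8a2 turned to 0.12 as deviations from group means, where Col8a1 with white adipocyte markers turned to -0.125. The count of collagen transcripts past the test in KO-labelled Ang II against KO saline ranged from 0 to 1 with single libraries left out. The cause of these changes was not tested. No paired analysis was possible because no animal number is shared between groups.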
